A study of Mus musculus with 6 samples.

Results

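The tight junction genes followed here (Cldn5, Cldn12, Ocln, Marveld2, Lsr, F11r, Jam2, Tjp1 and Cgnl1) are 9 in number and were compared between whole brains of knockout and wild-type mouse embryos. They were chosen by symbol, and all 9 were found among the 52459 symbols of the count table and among the 19565 genes tested. The series held 6 bulk RNA sequencing libraries, 3 labelled Mfsd7c-/- and 3 labelled wild type, from C57BL/6 embryos at E14.5. Whole brains carry neurons, progenitors, meninges, choroid plexus and blood as well as vessels. The labels do not give the deleted part of Mfsd7c, the litters or the embryos' sexes, and the p-values therefore weigh differences only against the spread among these 6 libraries. Values of the 3 libraries of a group are given in the order of replicates 1, 2 and 3, numbers that were not taken to pair the groups.

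Tight junctions seal the space between neighbouring cells of an epithelium or of brain endothelium. Claudins and occludin are the strands that cross the membrane, tricellulin and the angulins close the corners where cells meet, junctional adhesion molecules sit beside the strands, and the plaque proteins below the membrane tie all of these to actin. In brain vessels these junctions are a main part of the blood-brain barrier, and Cldn5 is the claudin that endothelium expresses most. Several of the others are also made outside vessels, such as Tjp1 in neural progenitors and F11r in platelets and epithelia, so their bulk level is not a level in endothelium.

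In GENCODE M21 on GRCm38, the build also called mm10, the other members lie as follows. The annotation places Cldn12 (ENSMUSG00000046798.14) on chromosome 5 from 5489537 to 5514958 and Ocln (ENSMUSG00000021638.12) on chromosome 13 from 100496507 to 100552718. It has Marveld2 (ENSMUSG00000021636.15) on chromosome 13 from 100595957 to 100616971 and Lsr (ENSMUSG00000001247.16) on chromosome 7 from 30957770 to 30973464. It has F11r (ENSMUSG00000038235.4) on chromosome 1 from 171437535 to 171464603 and Jam2 (ENSMUSG00000053062.16) on chromosome 16 from 84774123 to 84825928. It has Tjp1 (ENSMUSG00000030516.14) on chromosome 7 from 65296165 to 65527781 and Cgnl1 (ENSMUSG00000032232.14) on chromosome 9 from 71626509 to 71771602. Counts are per gene and cannot be placed on exons or UTRs.

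The promoters of the 4 members with the lowest p-values are shown because 3 of these genes were lower in each knockout library and the fourth was higher. The letters are from RefSeq on GRCm38.p6, read 5′ to 3′ on the gene's strand and ending at the base before the start site. Capitals mark matches, on either strand, to the 8 motifs searched. Cldn5 is at chr16:18776597-18776846 on the plus strand, Ocln at chr13:100552719-100552968 and Lsr at chr7:30973470-30973719, both on the minus strand. F11r is at chr1:171437311-171437534 on the plus strand, and its last 26 bases before the RefSeq start, which GENCODE M21 places in an exon, are left out.
Cldn5: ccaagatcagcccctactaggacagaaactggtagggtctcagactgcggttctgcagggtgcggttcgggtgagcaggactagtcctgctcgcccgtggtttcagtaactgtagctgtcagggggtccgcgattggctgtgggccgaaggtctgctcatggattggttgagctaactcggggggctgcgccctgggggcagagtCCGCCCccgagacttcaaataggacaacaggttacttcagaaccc
Ocln: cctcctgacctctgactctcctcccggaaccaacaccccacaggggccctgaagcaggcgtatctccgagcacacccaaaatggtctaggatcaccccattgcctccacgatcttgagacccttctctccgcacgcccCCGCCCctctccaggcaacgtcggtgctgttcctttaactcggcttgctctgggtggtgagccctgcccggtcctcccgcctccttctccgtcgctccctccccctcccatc
Lsr: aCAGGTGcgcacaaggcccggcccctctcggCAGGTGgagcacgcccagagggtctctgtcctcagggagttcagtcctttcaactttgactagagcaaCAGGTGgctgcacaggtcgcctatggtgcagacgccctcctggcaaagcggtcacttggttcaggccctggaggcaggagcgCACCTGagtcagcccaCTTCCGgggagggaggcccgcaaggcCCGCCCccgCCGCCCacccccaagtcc
F11r: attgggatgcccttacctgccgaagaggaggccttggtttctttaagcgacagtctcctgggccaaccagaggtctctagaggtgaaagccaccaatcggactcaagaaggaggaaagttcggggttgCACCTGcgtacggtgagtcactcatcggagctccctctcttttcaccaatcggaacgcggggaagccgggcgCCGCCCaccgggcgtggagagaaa
The SOX motif AACAAT was found in 9.43% of all 32841 promoter windows of 250 bases, counting both strands. For the motif shared by SOX and TCF/LEF factors, ACAAAG, the share was 16.5%, and for the core bound by hypoxia-inducible factors, ACGTG, it was 16.6%. The forkhead motif GTAAACA was in 3.17% of windows. None of these 4 matched in the windows of the 8 members that had an entry, Jam2 being the member without one. The Sp1-type motif GGGCGG, in 32.7% of windows, matched in at least 1 window of each of these 8 members. It was the single match in the printed Cldn5 window and in the printed Ocln window. In Cldn5 it began 45 bases upstream on the opposite strand. The Snail-type motif CAGGTG, in 17.2% of windows, matched 4 times in the Lsr window and 1 time in the F11r window, and 2 times before another Ocln start that RefSeq lists. The ETS motif CGGAAG, in 13.6% of windows, matched in Lsr, Tjp1 and Cldn12. The remaining motif, TATAAA, in 12.4% of windows, matched in Marveld2. Motifs of different names did not overlap in the printed windows. A match or its absence describes these letters only.

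Of the 2 claudins, Cldn5 fell and Cldn12 did not pass the test. Cldn5, on chromosome 16 from 18776847 to 18778262 (ENSMUSG00000041378.2, a single exon), is the endothelial claudin. Its level, in CPM (reads of the gene scaled to a common library size), was 44.8, 47.0 and 45.7 in the knockout libraries. The wild-type libraries had 63.8, 67.8 and 63.3 CPM. All 3 knockout values were below all 3 wild-type values, and the spread within each group was small, with coefficients of variation of 2.40% and 3.85%. Cldn5 fell by 29.5%, which is -0.50 as a log2 fold change (SE 0.0585, 95% interval -0.64 to -0.37). Its adjusted p was 0.00840 by the quasi-likelihood test of edgeR, corrected over all genes tested. It was the 1 member of 9 to pass an adjusted p of 0.05, against 0.659% of all genes tested, and 0.0358% of all genes passed as lower. Its call was lost when replicate 1 or 3 of the knockout or replicate 2 of the wild-type group was left out (edgeR adjusted p = 0.0543, 0.0780 and 0.0685), although its log2 fold change stayed between -0.52 and -0.47 over all 18 alternative fits.

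Cldn12, a claudin of broad distribution, did not share this pattern. Its knockout values were 26.1, 29.1 and 30.1 CPM and its wild-type values 25.4, 26.5 and 28.5 CPM. The groups overlapped, and the log2 fold change was 0.08 with a 95% interval from -0.10 to 0.27 (edgeR adjusted p = 0.842). That interval does not include the value of Cldn5, -0.50.

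**Figure D1:**
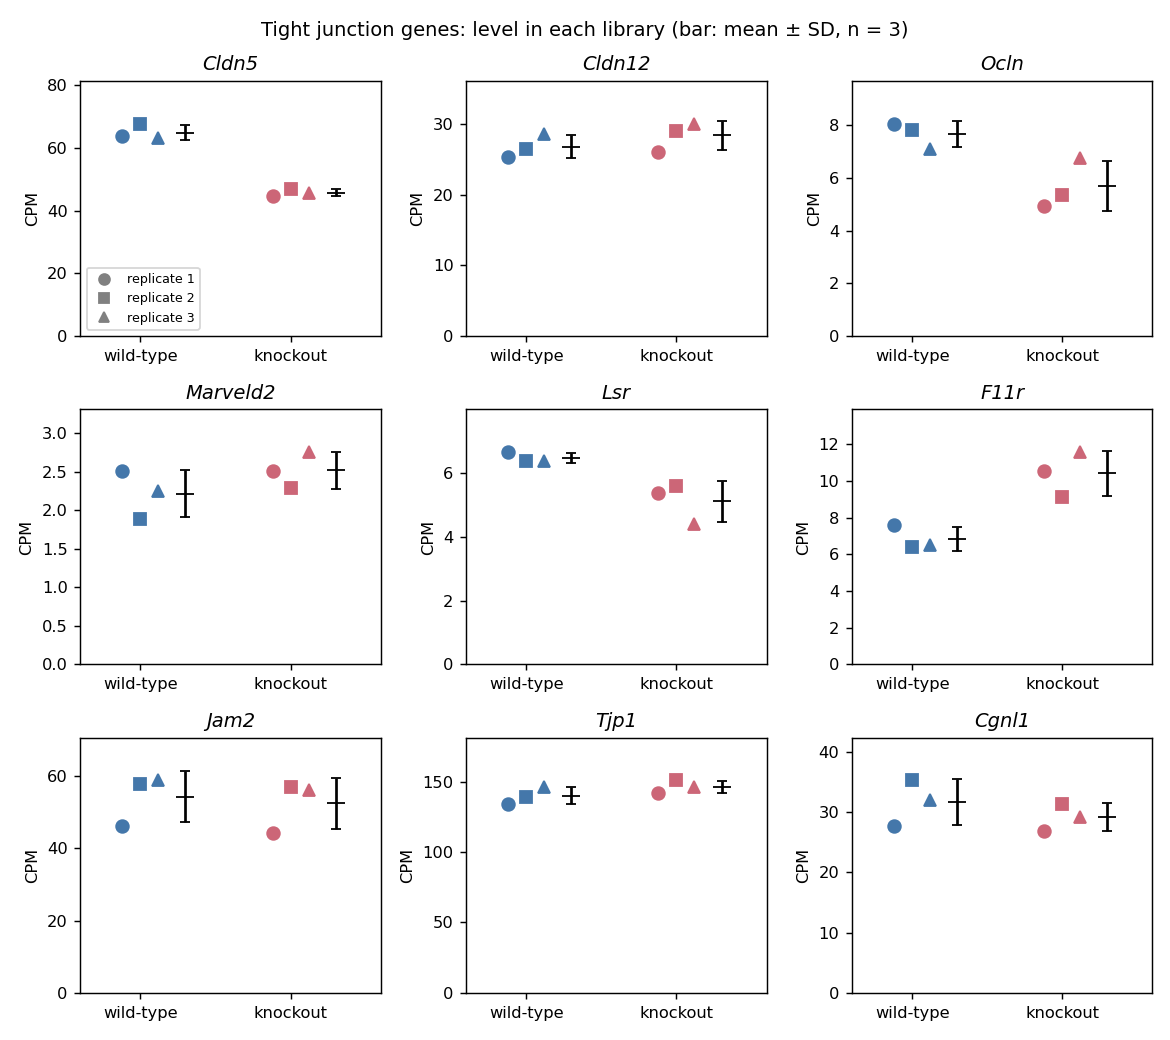
Level of each tight junction gene in CPM (y axis, from 0) in the 3 wild-type and 3 knockout libraries. Marker shapes give the replicate number, which was not taken to pair samples, and bars the mean ± SD (n = 3). Cldn5, Ocln and Lsr are lower in all 3 knockout libraries and F11r is higher, while the other 5 genes overlap.

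The RNA levels of the MARVEL-domain genes and the angulin were, like that of F11r, among the lower ones of the 9 members. Ocln, which encodes occludin, had 4.94, 5.36 and 6.76 CPM in the knockout libraries against 8.07, 7.82 and 7.12 CPM in the wild-type ones. The groups did not overlap, but the highest knockout library came close to the lowest wild-type one. The log2 fold change was -0.43 (SE 0.145, 95% interval -0.76 to -0.10), and it did not pass over all genes (edgeR adjusted p = 0.454). Marveld2, which encodes tricellulin, is on chromosome 13 like Ocln, with 43.2 kb between the genes and 2 predicted genes in that gap. Its values were 2.50, 2.29 and 2.75 CPM in knockout and 2.50, 1.89 and 2.25 CPM in control brains, which overlapped (log2 fold change 0.18, 95% interval -0.23 to 0.60, edgeR adjusted p = 0.847). It had 95 to 132 counts a library, the fewest of the 9 members.

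Lsr, the angulin that recruits tricellulin to the corners between cells, had 5.38, 5.58 and 4.38 CPM in knockout brains against 6.65, 6.37 and 6.36 CPM in the controls. Each knockout value was below each wild-type value. The log2 fold change was -0.34 (SE 0.134, 95% interval -0.64 to -0.03, edgeR adjusted p = 0.552). In the annotation Lsr overlaps Gm4673, a gene on the opposite strand, which had 592 to 759 counts against 210 to 320 for Lsr. The overlap is one of whole gene spans, and whether exons of these genes overlap was not examined. With no strand setting stated, any reads from shared bases cannot be told apart. The log2 fold change of Gm4673 itself was -0.17 with overlapping groups (SE 0.116, edgeR adjusted p = 0.761).

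Of the 2 junctional adhesion molecules, F11r had the highest log2 fold change of the 9 members and Jam2 the one nearest 0. F11r encodes JAM-A, and its knockout values were 10.5, 9.13 and 11.6 CPM. In the wild-type libraries it had 7.58, 6.41 and 6.50 CPM. The groups did not overlap and the level was 1.53-fold higher in knockout (log2 fold change 0.61, SE 0.129, 95% interval 0.32 to 0.90). It missed the threshold over all genes in edgeR (adjusted p = 0.122). It passed in the DESeq2 Wald test (adjusted p = 0.00304), which called 1.48% of genes, and in the authors' deposited table (adjusted p = 0.00300), which rests on the same 6 libraries and called 1.5% of genes. Jam2, which encodes JAM-B, had 44.2, 56.9 and 56.1 CPM in the knockout against 46.1, 57.9 and 58.8 CPM in the wild-type libraries. Replicate 1 was the lowest of each group, the groups overlapped, and the log2 fold change was -0.05 (95% interval -0.33 to 0.23, edgeR adjusted p = 0.949).

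Neither plaque gene passed the test. Tjp1, which encodes the scaffold ZO-1, had 142, 151 and 146 CPM in knockout against 134, 139 and 146 CPM in control brains. Its log2 fold change was 0.06 (95% interval -0.06 to 0.19, edgeR adjusted p = 0.823), and its highest and lowest libraries differed by 1.12-fold, the narrowest span of the 9 members. Cgnl1, which encodes paracingulin, had 26.9, 31.4 and 29.2 CPM in knockout against 27.6, 35.2 and 32.0 CPM in control brains (log2 fold change -0.12, 95% interval -0.35 to 0.11, edgeR adjusted p = 0.823). Both genes overlapped between the groups.

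Over the 9 members, 4 had groups that did not overlap, against 14.4% of all genes tested, and the same 4 had an unadjusted edgeR p under 0.05, against 8.09% of all genes. Of these, Cldn5, Ocln and Lsr were lower in knockout, as were 6.58% of all genes without overlap, and F11r was higher, as were 7.84%. The median log2 fold change was -0.05 over the members and -0.01 over all genes tested, and the members ranged from -0.50 (Cldn5) to 0.61 (F11r). From bulk samples, fewer cells of a type and less RNA of a gene per cell cannot be told apart. A list of 16 pan-endothelial genes summed to 573 to 646 CPM in knockout and 377 to 455 CPM in wild-type brains. Of these genes 7 rose and 0 fell in edgeR, against 0.624% and 0.0358% of all genes tested. The median log2 fold change over the list was 0.53. Cdh5, Tie1, Kdr and Erg, which did not pass, had 0.19, 0.18, 0.15 and 0.15. Ramp2, Egfl7 and Tek, which did not pass either, had -0.05, -0.11 and -0.49. The number of endothelial cells was not measured, and its part in the level of Cldn5 was not tested.

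Levels of different genes were compared per kb of annotated exon. In wild-type brains the order was Cldn5 at 45.9 ± 1.77 CPM per kb (SD, n = 3), Tjp1 at 17.9 ± 0.780, Jam2 at 8.97 ± 1.17, Cldn12 at 6.34 ± 0.381, Cgnl1 at 4.03 ± 0.488, Lsr at 2.97 ± 0.0761, F11r at 2.56 ± 0.244, Ocln at 1.82 ± 0.116 and Marveld2 at 0.655 ± 0.0912. No neighbours in this order overlapped among the wild-type libraries, the closest being Lsr (lowest 2.93) and F11r (highest 2.84). In knockout brains F11r, at 3.91 ± 0.463 CPM per kb (SD, n = 3), stood above Lsr, at 2.35 ± 0.295, and overlapped Cgnl1, at 3.72 ± 0.290. The wild-type order of F11r and Lsr rests on the scaling, since their unscaled means there were 6.83 and 6.46 CPM. Annotated exon length need not be the length of the transcript expressed. Cldn5 remained first at 32.3 ± 0.775 CPM per kb (SD, n = 3).

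Proportions between members within a library were taken for 9 pairs, each with Cldn5, Ocln, Lsr or F11r as the numerator. These are the members whose own groups did not overlap, so a ratio without overlap largely repeats that. No share over other gene pairs was taken. Cldn5 was 1.74, 1.72 and 1.72 times the length-scaled level of Tjp1 in the knockout libraries, and 2.62, 2.69 and 2.38 times in the wild-type ones. The groups of this ratio did not overlap. Of the pair that meets at cell corners, Lsr was 3.34, 3.80 and 2.48 times Marveld2 in knockout and 4.14, 5.25 and 4.40 times in wild-type brains. The F11r to Lsr ratio was 1.70 ± 0.419 in knockout and 0.861 ± 0.0591 in wild-type brains (SD, n = 3), again without overlap. F11r was 0.541, 0.364 and 0.469 times Jam2 in knockout and 0.373, 0.251 and 0.251 times in control brains, which overlapped. These ratios were chosen after the values were seen and were not tested.

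**Figure D2:**
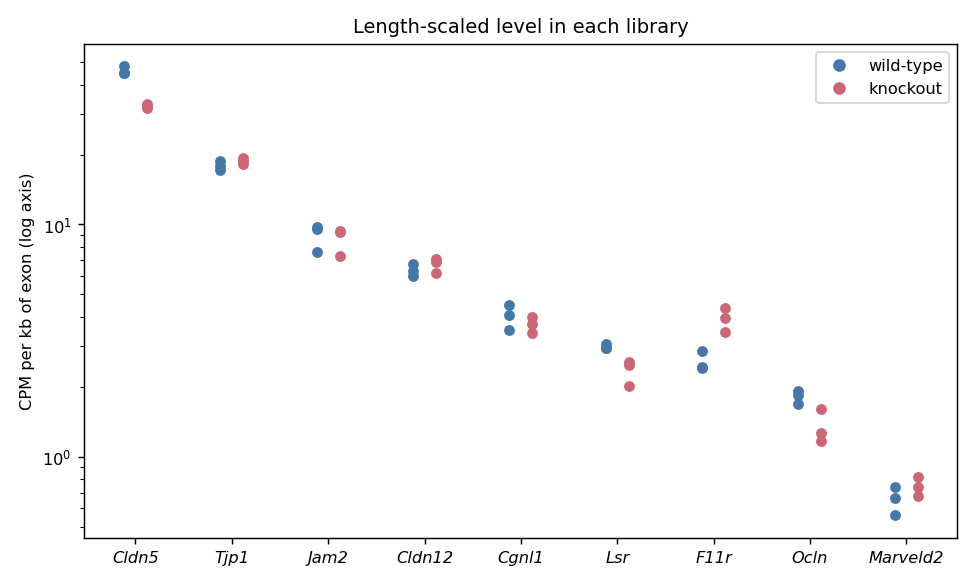
Length-scaled level of each gene in CPM per kb of exon (log axis), with 1 point per library and genes ordered by their wild-type mean. Cldn5 is first in both groups, at 45.9 in wild-type and 32.3 in knockout. On this scale F11r moves from below Lsr to above it, while in unscaled CPM its wild-type mean was already above that of Lsr.

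The members were next set against other endothelial genes of the same libraries. The summed levels of the 16 pan-endothelial genes did not overlap between the groups. The 7 that rose in edgeR were Pecam1, Flt1, Eng, Emcn, Robo4, Cd34 and Ecscr. Their log2 fold changes ran from 0.64 for Ecscr to 1.22 for Flt1, a receptor for vascular endothelial growth factor. Cd93 and Esam had log2 fold changes of 0.62 and 0.45 and did not pass (edgeR adjusted p = 0.0915 and 0.201), and Tek, the angiopoietin receptor, had -0.49 (edgeR adjusted p = 0.175). Cldn5, at -0.50, was close to Tek and below the other 15 genes of the list. The part of the endothelial list in the values of the members was not tested.

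Relative to the mean log2 CPM of the pan-endothelial list, Cldn5 had 0.64, 0.74 and 0.57 in the knockout libraries against 1.72, 1.59 and 1.54 in the controls. The difference of -0.97 on the log2 scale was larger than the spread within either group (SD 0.0859 and 0.0920). The exact two-sided permutation test gave p = 0.1, the smallest that 3 against 3 libraries allow. The size depended on the reference, with -0.69 against Cdh5 alone and -0.47 against Tie1, Tek and Cdh5, and the groups did not overlap for any of the 3 references. The same subtraction lowered the values of the other members too, since the list was higher in knockout brains. Ocln, Lsr, Cgnl1, Jam2, Tjp1 and Cldn12, with differences from -0.90 (Ocln) to -0.38 (Cldn12), were also lower in each knockout library, and Marveld2 and F11r overlapped, with -0.28 and 0.14. Against Tie1, Tek and Cdh5, Tjp1, Cldn12 and Marveld2 turned to 0.10, 0.12 and 0.22, Ocln, Cgnl1 and Jam2 had -0.40, -0.08 and -0.02 with overlapping groups, Lsr had -0.31 without overlap, and F11r had 0.64 without overlap.

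**Figure D3:**
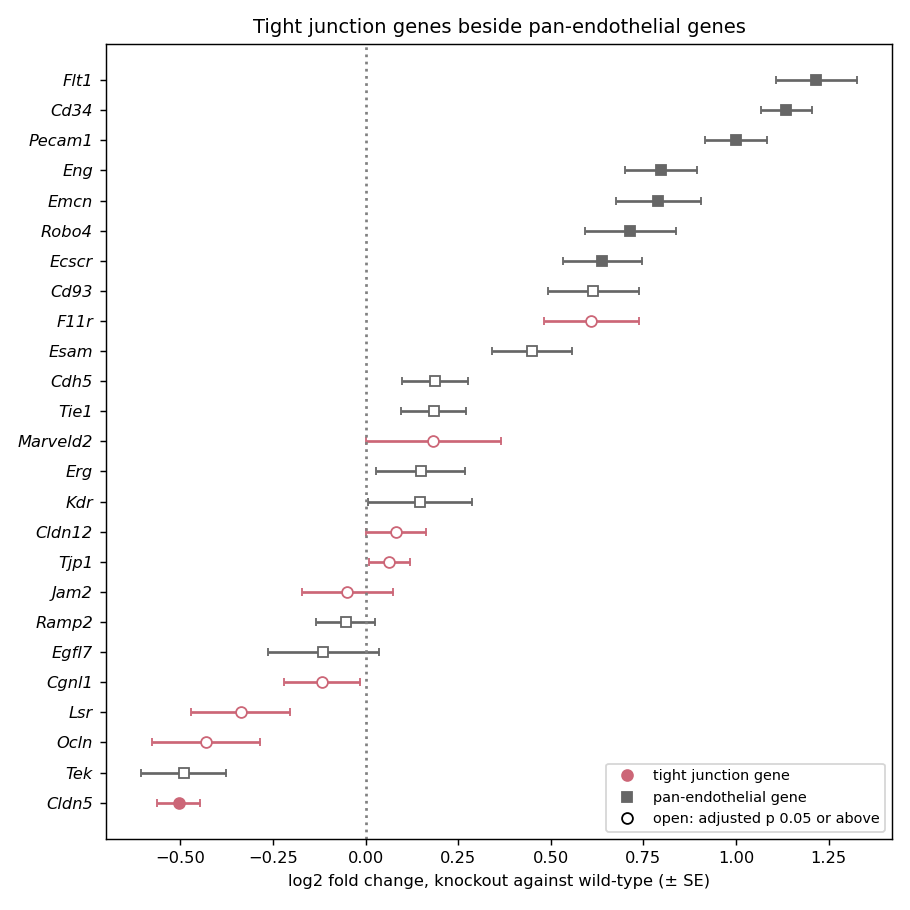
Log2 fold change (x axis, ± SE, edgeR) of the 9 tight junction genes (circles) and 16 pan-endothelial genes (squares), sorted, with filled symbols for an adjusted p under 0.05. Cldn5 is at the bottom at -0.50 and is the 1 filled circle, while the 7 filled squares are all to the right of 0.

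In the remaining junction genes no change passed the test. None of the 61 tested genes on 6 lists of further claudins, MARVEL and angulin genes, adhesion molecules, plaque and scaffold genes, polarity genes, and adherens junction genes passed in edgeR, and 6 had an unadjusted p under 0.05, all higher in knockout. Over all genes tested 8.09% had such a p, 905 genes higher and 677 lower, so the count without regard to direction was near the background. Groups did not overlap for 11 of the 61 with knockout higher and for 1 with knockout lower, against 7.84% and 6.58% of all genes. This lean toward higher values was not tested. DESeq2 called 1 of the 61, Esam. The median log2 fold change of the 61 was 0.07.

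Of 14 tested claudins besides the members, 0 passed. The lowest p-values belonged to the claudin-like Cldnd1, with a log2 fold change of 0.11 (SE 0.0551), Cldn15, with -0.74 (SE 0.400), and Cldn7, with 0.69 (SE 0.530). Cldn14 was too scarce to test. Among the 4 MARVEL and angulin genes, Ildr2, Marveld3 and Ildr1 had log2 fold changes of 0.12, 0.28 and 0.45, and 0 passed. Of the 5 adhesion molecules 0 passed. Esam, an endothelial adhesion molecule, was at 24.6 ± 0.751 CPM in knockout and 18.0 ± 2.60 CPM in wild-type brains (SD, n = 3) without overlap, while the log2 fold changes of Igsf5 and of Jam3, which encodes JAM-C, were -0.98 (SE 0.458) and -0.20 (SE 0.158).

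The 16 plaque and scaffold genes included Amotl1, an angiomotin-like protein, at 0.20 (SE 0.0463, edgeR adjusted p = 0.165), Tjp3, which encodes ZO-3, at 0.36 (SE 0.108) and Vasp, an actin regulator, at 0.13 (SE 0.0587) on the log2 scale. Of the 10 tested polarity genes Pard3b, Pard6g and Prkci had 0.25, 0.18 and 0.12. Of the 12 adherens junction genes Cdh2, which encodes N-cadherin, had 0.19 (SE 0.0613), Cdh5, the endothelial cadherin, 0.19 (SE 0.0889) and Nectin1 0.06 (SE 0.0663). None of these genes passed. Cdh5 was at 65.5 ± 6.15 CPM in knockout and 57.5 ± 4.94 CPM in control brains (SD, n = 3), and the 95% interval of its log2 fold change ran from -0.02 to 0.39.

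Of 17 transcription factors and Wnt targets linked to vascular and barrier genes, 1 fell and 0 rose. Over all genes tested 0.0358% fell and 0.624% rose in edgeR. Groups did not overlap for 5 of the 17 with knockout lower and for 2 with knockout higher, against 6.58% and 7.84% of all genes. Sox18, a SoxF factor of endothelium, was at 6.27 ± 0.434 CPM in knockout and 10.8 ± 0.455 CPM in control brains (SD, n = 3), which is -0.78 on the log2 scale (SE 0.107, edgeR adjusted p = 0.0160). The call of Sox18 was kept without wild-type replicate 1 and lost when any of the other 5 libraries was left out, with a term for sex, and without wild-type replicates 2 and 3 together. Foxf2, a pericyte factor, had 0.40 (SE 0.106), Foxo1 had 0.22 (SE 0.0782) and Apcdd1, a Wnt target of brain endothelium, had -0.22 (SE 0.0608), and these 3 did not pass.

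The genes whose pattern was most like Cldn5 were sought over the 6 libraries by Pearson's r of log2 CPM, among 11764 genes with a mean of at least 5 CPM. They were Nubp1 (r = 0.999), Lpcat3 (0.997), Slc38a5 (0.990), Mmp9 (0.988) and Adgrl1 (0.986). Slc38a5, which carries amino acids, and Mmp9, a matrix metalloproteinase, fell, while Nubp1, Lpcat3 and Adgrl1 had log2 fold changes of -0.28, -0.16 and -0.08 and did not pass in edgeR. For Ocln the nearest were Mtfr1l (r = 0.974), Bin1 (0.973), Gpr162 (0.970), Ssbp4 (0.966) and Pdcd5 (0.966), with log2 fold changes from -0.14 to -0.06. With 6 libraries such values are easily high, since 48 genes had an r over 0.95 with Cldn5 and 17 with Ocln. The group means were not removed, so a difference between the groups in the same direction also raises r.

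The libraries held 43784619 to 50549673 counts. Mfsd7c, the targeted gene, had 2.54 to 2.76 CPM in the libraries labelled knockout and 4.64 to 5.79 CPM in those labelled wild-type (log2 fold change -0.96, SE 0.147, edgeR adjusted p = 0.0271). Wild-type replicate 2 alone had high Xist (82198 counts). Krt5, an epidermal keratin, was high in knockout replicate 1 and wild-type replicate 1 (105 and 79.9 CPM). Knockout replicate 3 had 20.4 CPM of Krt5, and knockout replicate 2 and wild-type replicates 2 and 3 had 3.73, 3.54 and 0.339 CPM. Embryonic beta-globin made up 23.3% to 26.5% of beta-globin in knockout replicate 2 and wild-type replicates 2 and 3. Hoxb3 was high in wild-type replicates 2 and 3. The summed level of 18 epithelial and epidermal markers ran from 43.5 to 282 CPM in knockout and from 26.2 to 240 CPM in wild-type brains. That of 12 platelet and erythroid markers ran from 1707 to 3452 and from 1123 to 2380 CPM, that of 10 choroid plexus markers from 688 to 1449 and from 1042 to 1192 CPM, and that of 10 meningeal markers from 1106 to 1336 and from 948 to 1860 CPM. For 10 neural markers the sums were 5131 to 5461 and 5056 to 5589 CPM, and for 6 oligodendrocyte lineage markers 136 to 150 and 135 to 167 CPM. These 6 lists overlapped between the groups, 0 of their genes passed, and no marker was at 0 in all libraries. Among their genes of lowest p, in this order of lists, were Epcam, Krt18 and Cldn7, then Gp9 and Hba-a1, then Prlr, Slc4a5 and Calml4, then Crabp2, Dcn and Col1a2, then Sox2, Vim and Neurod2, and last Sox10 and Cspg4. Among these, Hba-a1 had the highest log2 fold change, 0.98 (SE 0.462), and overlapped between the groups. Of the 5 platelet genes on their list, Gp9 (6 to 17 counts a library), Gp1ba and Pf4 had 0.77, 0.31 and 0.21 without overlap, and Itga2b and Ppbp had -0.02 and -0.09 with overlap. The sum of that list is mostly globin and says nothing of platelets. The part of these markers in the values of the members was not tested.

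The values were also taken within sets of libraries split by Krt5 or by embryonic beta-globin, which do not balance Hoxb3 or Xist. Nor is Krt5 balanced outside the Krt5-high libraries, where knockout replicate 3 had 20.4 CPM and wild-type replicates 2 and 3 had 3.54 and 0.339 CPM. For Cldn5 the knockout to wild-type ratio was 0.709 among the 3 libraries low in embryonic beta-globin, 0.716 among the 3 high ones, 0.702 between the 2 Krt5-high libraries and 0.706 among the other 4. For F11r it was 1.46, 1.41, 1.39 and 1.60 in the same sets. For Ocln it was 0.725, 0.718, 0.612 and 0.811, and for Lsr 0.734, 0.877, 0.808 and 0.783. Each of these sets holds 1 or 2 libraries a group, so they give values and no test. Without wild-type replicates 2 and 3, a fit in which the spread of the single wild-type library left is taken from the other group, Cldn5 had a log2 fold change of -0.47 and did not pass (edgeR adjusted p = 0.117).

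**Figure D4:**
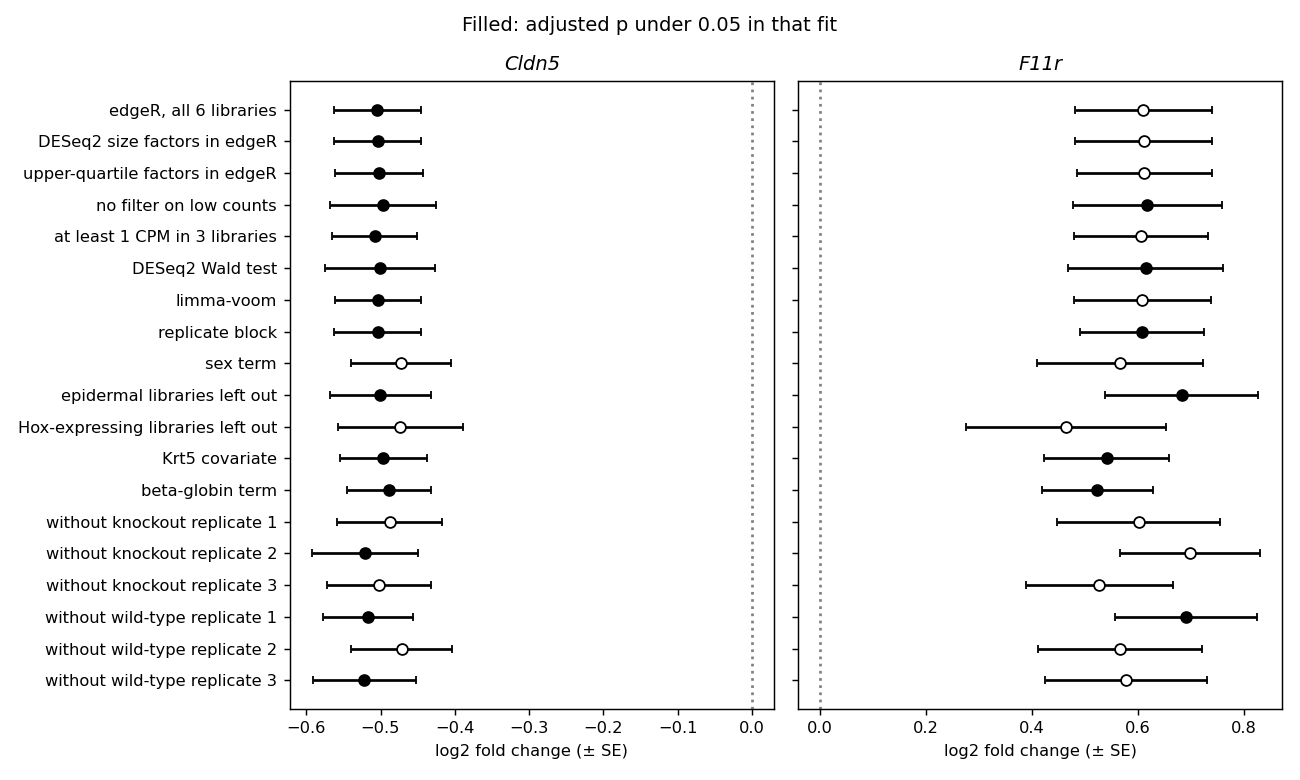
Log2 fold change (x axis, ± SE) of Cldn5 and F11r in the fit of all 6 libraries and in 18 alternatives (y axis), with filled points for an adjusted p under 0.05 in that fit. All values of Cldn5 lie between -0.52 and -0.47 and all values of F11r between 0.46 and 0.70, while the number of filled points differs.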

How the data were processed

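Bulk RNA sequencing of 3 knockout and 3 wild-type whole brains at E14.5 was analysed from the deposited counts, whole numbers of reads per gene symbol made by the authors. The submitters' processing notes name STAR 2.5.2a, featureCounts and DESeq2 1.12.4 and the builds mm10 and hg19, without roles. Annotation, strand setting and the handling of shared reads are not given in the sources used. Per the file headers, the authors' deposited table of the comparison gives a mean normalized signal, log2 fold changes and their errors, the Wald statistic as a score, and p-values before and after adjustment.

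The filterByExpr function of edgeR 4.0.16 left 19565 of 52459 genes, which were scaled by TMM. Knockout was compared with wild-type by robust quasi-likelihood testing, and p-values were adjusted over all genes by Benjamini-Hochberg, with a threshold of 0.05. The SE is the log2 fold change divided by the square root of the F statistic. The common biological coefficient of variation was 15.3%. Libraries held 43784619 to 50549673 counts, and no pair of libraries of the same group agreed within sampling noise. Pairs across the groups were not examined for this. Log2 CPM used a prior count of 2. Exon lengths and coordinates are from GENCODE M21 on GRCm38, matched by symbol for all 9 members. Promoters are RefSeq's 250 bases upstream. The fits were also run on simulated counts with a fixed dispersion and no differences among libraries beyond size and genotype. That run does not cover the Krt5, globin and Hoxb3 differences of these libraries.

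Named are all members, list genes that passed, up to 3 others of lowest p per list, and the 5 genes most correlated with Cldn5 and with Ocln. Of the marker genes this takes, 2 are not reported here. The members and lists were chosen with earlier results of these data known. Alternatives were other size factors and filters, DESeq2 1.42.0, voom in limma 3.58.1, a replicate block, terms for sex, Krt5 or beta-globin, and libraries left out. R 4.3.3 was used.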

Additional observations from a re-analysis of the deposited data

How the results depend on the processing

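Of the 9 members, 1 passed with all libraries. The number was 2 (Cldn5 and F11r) with no filter on low counts, in the DESeq2 Wald test, with the replicate block, without the 2 Krt5-high libraries, and with a beta-globin term or a Krt5 covariate. It was 0 with the sex term, which rests on wild-type replicate 2, and 0 without the 2 Hox-expressing libraries, and ran from 0 to 2 without single libraries, with 2 without wild-type replicate 1. Of the other junction and regulator genes 1 passed (Sox18), and the number was 2 with no filter, in the DESeq2 Wald test, with the replicate block and with the beta-globin term, 4 with the Krt5 covariate, 0 with the sex term, 0 without the Hox-expressing libraries, and 0 to 1 without single libraries, with 1 only without wild-type replicate 1. Over all genes, 129 passed with all libraries and 36 to 388 without single ones.

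Cldn5 kept its direction in all 18 alternatives and passed in 13 of them. Its log2 fold change was -0.47 with the sex term (edgeR adjusted p = 0.0642), -0.47 without the Hox-expressing libraries (edgeR adjusted p = 0.117), and -0.52 to -0.47 without single libraries. F11r passed in 7 of 18 alternatives, with log2 fold changes from 0.46 to 0.70. Ocln and Lsr passed in 0 of 18 and stayed below 0. Jam2, which had not passed, changed sign to 0.19 without the Hox-expressing libraries, 0.065 with the Krt5 covariate and 0.043 with a beta-globin term, and ran from -0.15 to 0.059 without single libraries. Cgnl1 was 0.082 without the Hox-expressing libraries. What caused these shifts was not tested.

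The pairing of samples by replicate number was examined through the correlation of deviations from the group means. It was 0.587, 0.310 and 0.0337 for numbers 1, 2 and 3. For unlike numbers it ran from -0.553 (knockout 2 with wild-type 1) to 0.478 (knockout 2 with wild-type 3). The labels state no pairs and these values do not settle the point, so the numbers were not taken as pairs. With the replicate block Cldn5 had a log2 fold change of -0.50 (edgeR adjusted p = 0.00256) and F11r of 0.61 (edgeR adjusted p = 0.0390), and 282 genes passed.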

Other observations

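Cldn4, a claudin of surface epithelia, was highest in the 2 Krt5-high libraries. It had 273, 4 and 48 counts in knockout replicates 1, 2 and 3 and 208, 2 and 4 counts in wild-type replicates 1, 2 and 3. Among the 9 members the widest spans between the highest and lowest library were 1.81-fold for F11r and 1.64-fold for Ocln. Cldn11, the claudin of oligodendrocytes and of the arachnoid layer, varied within both groups, at 47.0 ± 17.1 CPM in knockout and 46.6 ± 11.3 CPM in control brains (SD, n = 3).

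The 5 genes closest to F11r in pattern, looked up after its values were seen, were P4ha2 (r = 0.999), Pgam1 (0.995), Pgm2 (0.994), Gna13 (0.994) and Loxl2 (0.994). P4ha2 is a collagen prolyl hydroxylase, Pgam1 a glycolytic enzyme, Pgm2 a phosphoglucomutase and Loxl2 a collagen crosslinking enzyme. Pgam1, Pgm2 and Loxl2 rose in edgeR, with log2 fold changes of 0.84, 0.64 and 1.35, and P4ha2 and Gna13 had 0.93 and 0.32 and did not pass. Over 6 libraries 181 genes had an r over 0.95 with F11r. The group means were not removed, so genes that differ between the groups in the same direction rank high. Shared regulation was not tested.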
